A study of Mus musculus with 6 samples.

Results

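Amino acid transporters of the Slc1, Slc3, Slc7, Slc36, Slc38 and Slc43 families were described across 4 groups of sorted cells from mouse hind-limb muscle. The genes were taken by symbol, as every member of these families in a table of normalised counts, and numbered 42 of the 24062 genes in that table. A second table, in CPM (read counts scaled to a common library size), lists 4939 genes chosen by the authors and holds 15 of the 42. The families were taken up after several of their genes had been seen to differ between the labelled cells of the 2 mouse lines, so that contrast is given as a description, without a test.

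RNA was sequenced from tdTomato-positive and tdTomato-negative cells, sorted from adult mice on the C57BL/6 background that had 3 tamoxifen treatments, given on alternate days, 10 days before the muscle was collected. In Tw2-CreERT2/+;R26-tdTO+ mice, Cre is expressed from the gene of Twist2, a transcription factor of mesenchymal cells, and the labelled cells (Tw2pos) and the unlabelled cells (Tw2neg) have 2 libraries each. In Pax7-CreERT2/+;R26-tdTO+ mice, Cre is expressed from the gene of Pax7, a marker of satellite cells, and the labelled cells (Pax7pos) and the unlabelled cells (Pax7neg) have 1 library each. All 4 groups carried a Cre and the reporter and received tamoxifen. An unlabelled fraction holds whatever cells of the digest were not labelled, and fewer cells of a type cannot be told apart in these bulk samples from less RNA per cell. Whether the replicates are different animals is not stated in the labels, and p-values therefore reflect only how these libraries spread, which may be technical.

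Cells take up amino acids through several transporter families with different substrates and driving forces. The Slc7 light chains reach the cell surface bound to a heavy chain, mostly Slc3a2 (4F2hc, CD98), and exchange amino acid for amino acid, whereas the cationic Slc7 members work without a heavy chain and carry arginine and lysine. Slc1 members carry glutamate or exchange small neutral amino acids, and Slc38 members take up glutamine and other neutral amino acids with sodium. Several Slc36 members move small amino acids with protons at the cell surface and at lysosomes. Slc43a1 and Slc43a2 facilitate the passage of large neutral amino acids. In muscle, amino acid supply feeds protein synthesis through the kinase complex mTORC1.

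Read totals were 10902318 and 12425426 for the Tw2pos libraries and 13205751 and 13005707 for the Tw2neg libraries. Pax7pos held 6016469 reads over the CPM table. Markers were in place for the labelled cells: Pax7 itself had 303 CPM in Pax7pos against 0.402 in Pax7neg, and the fibroblast receptor Pdgfra had 898 and 892 CPM in Tw2pos, 269 and 176 CPM in Tw2neg, 4.28 CPM in Pax7pos and 264 CPM in Pax7neg. Markers of several cell types moved with the label in the Twist2 line (limma, Benjamini-Hochberg adjusted p under 0.05). Lower in Tw2pos were 9 of 9 neutrophil, 10 of 10 lymphocyte, 9 of 9 macrophage and 8 of 9 endothelial markers. Higher were 7 of 9 fibroblast and 6 of 6 tendon markers. Of 9 satellite cell markers 1 was higher, 2 were lower and 6 did not pass. Of 7 pericyte and smooth muscle markers 1 was higher and 6 did not pass. Of 6 Schwann cell markers 1 was higher and 4 were lower, and all 3 red blood cell markers tested were lower. Fibroblast markers summed to 65842 and 73305 CPM in Tw2pos, 17524 and 9770.1 in Tw2neg, 4572 in Pax7pos and 37234 in Pax7neg. The summed CPM of 9 neutrophil markers was 45.3 and 28.6 in Tw2pos, 6175 and 5582 in Tw2neg, 20.6 in Pax7pos and 2592 in Pax7neg, and that of 9 lymphocyte markers was 7.21 and 15.9, 529.9 and 1152, 5.95 and 894 in the same order. The 8 macrophage and monocyte markers summed to 193 and 256 CPM in Tw2pos, 2730 and 3055 in Tw2neg, 115 in Pax7pos and 3334 in Pax7neg. Their part in the differences below was not tested. Among the defining markers, Rag1 had no read in either Tw2pos library and Cd177 none in Tw2pos replicate 2. No read allows up to 3.82 normalised counts in Tw2pos replicate 1 and 3.62 in replicate 2, at 3 reads per library and for counting error only.

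**Figure D1:**
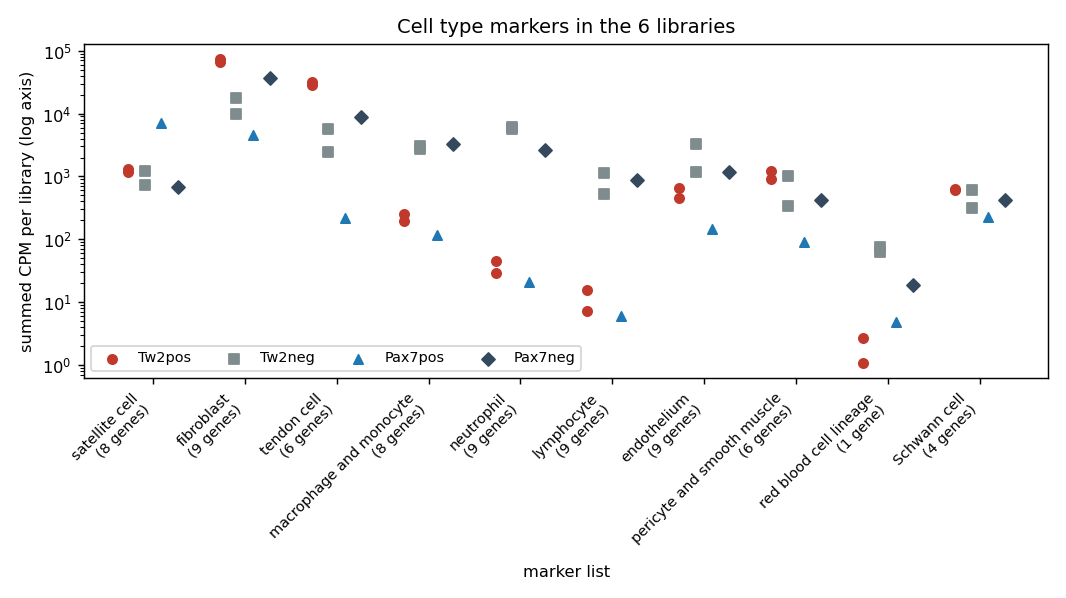
Summed CPM of 10 marker lists (log axis) in each library; red circles are the 2 Tw2pos libraries, grey squares the 2 Tw2neg libraries, the blue triangle Pax7pos and the dark diamond Pax7neg. Neutrophil markers summed to 45.3 and 28.6 CPM in Tw2pos against 6175 and 5582 CPM in Tw2neg, and satellite cell markers reached their highest sum, 7096 CPM, in Pax7pos.

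Of the 42 genes, 30 reached a mean of 10 normalised counts in the Twist2 libraries and were tested there, and 12 did not. The most abundant members per kilobase of exon were the same 4 genes in all 4 libraries: Slc38a2 (1348 and 1500 normalised counts per kilobase in Tw2pos against 1113 and 1045 in Tw2neg), Slc3a2 (880.4 and 1213 against 1231 and 1262), Slc1a5 (1068 and 1039.6 against 569.6 and 599) and Slc43a3 (845 and 1132 against 841 and 594). Within Tw2pos, the ranges of Slc1a5, Slc3a2 and Slc43a3 overlapped, so their order does not exceed the spread between libraries. Slc38a10 followed at 458 and 441 normalised counts per kilobase in Tw2pos and 297 and 238 in Tw2neg, except that Slc7a5 was above it in Tw2neg replicate 2. Exon lengths are those of the GENCODE M21 annotation, which may differ from the authors' gene models.

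Members differed in both directions between labelled and unlabelled cells of the Twist2 line, with glutamate and neutral amino acid carriers of the Slc1 family mostly higher in Tw2pos, and Slc7a11, Slc38a1 and Slc43a2 lower. In the limma fit on log2 of normalised counts plus 1, with Benjamini-Hochberg adjustment over 14155 genes, 8 of 30 members were higher in Tw2pos and 7 were lower, and 15 did not pass an adjusted p of 0.05. Over all genes tested, 18.7% were higher and 20.0% lower, so the members were called at 50% where all genes were called at 38.6%. Tw2pos is also part of the contrast for which the families were taken up. These calls and shares are therefore not independent of the choice of genes. The members' median log2 fold change was 0.35, against −0.04 for all genes. Scaling by library totals moved the median of all genes to −0.49 and gave 3 members higher and 10 lower, and no called member changed sign. Slc1a2 (adjusted p = 0.111), Slc1a5 (0.133), Slc36a4 (0.351), Slc38a6 (0.233) and Slc38a10 (0.237) did not pass in limma under that scaling. With DESeq2 on the recovered reads, Slc1a2 (adjusted p = 0.086), Slc36a4 (0.0598) and Slc38a4 (0.057) did not pass, and under quantile normalization Slc1a5 (0.0509), Slc38a4 (0.0944) and Slc38a10 (0.0636) did not. At an unadjusted p under 0.05, 16 members passed, where 49.9% of all genes did. The 2 groups did not overlap for 24 of 30 members, where 76.3% of all genes did not overlap. Tw2pos was the higher group for 14 of these, where that held for 37.1% of all genes, and the lower group for 10, where it held for 39.2%.

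**Figure D2:**
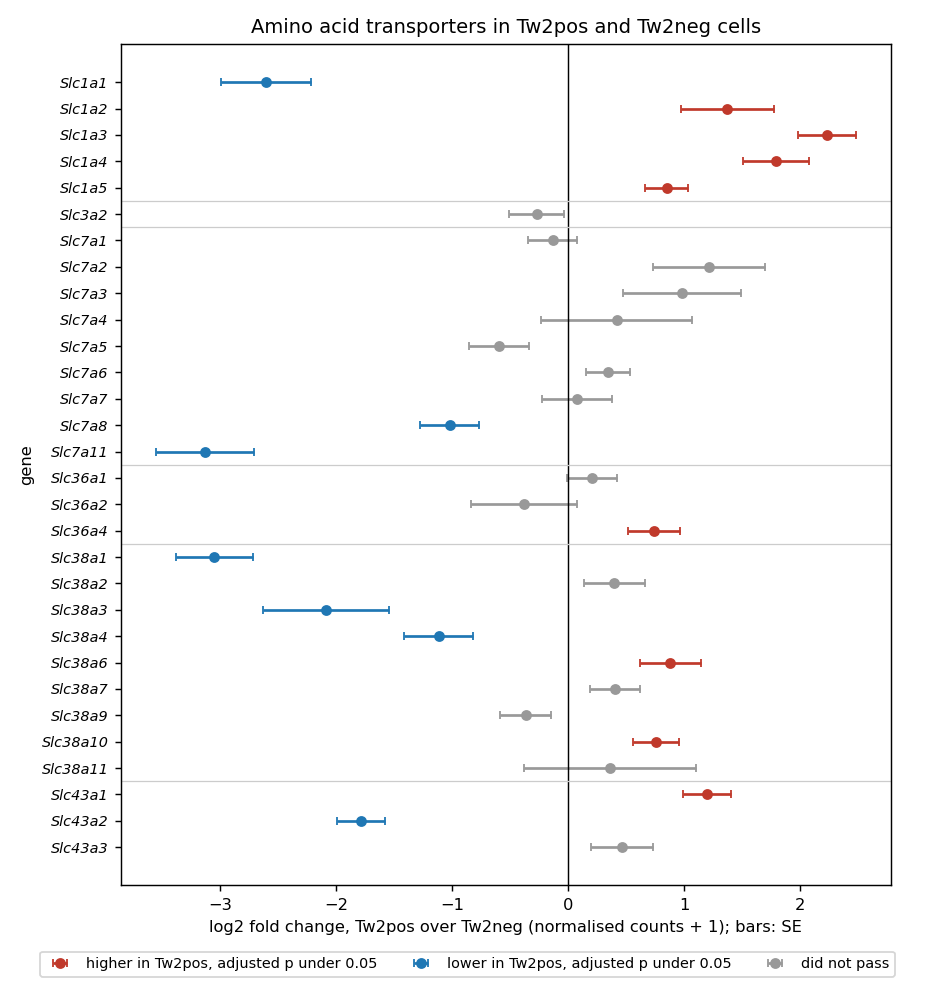
Log2 fold change of Tw2pos over Tw2neg for the 30 members tested, by family from top to bottom; points are limma estimates from 2 libraries a group and bars are standard errors. Slc1a3, at 2.23, had the highest value and Slc7a11, at −3.13, the lowest.

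The heavy chain Slc3a2 (GRCm38 chromosome 19, 8706882 to 8723369, minus strand) did not pass as different between the Twist2 groups. Slc3a2 had 251 and 346 CPM in Tw2pos against 349 and 356 CPM in Tw2neg (log2 fold change −0.27, SE 0.24, limma adjusted p = 0.397). Both Tw2pos libraries lay below both Tw2neg libraries. In the Pax7 line Slc3a2 had 1158 CPM in Pax7pos against 549.9 CPM in Pax7neg, and the Pax7pos library was the highest of the 6. Slc3a1, the heavy chain of cystine transport in kidney and gut, was counted with 4 and 9 reads in the Tw2pos libraries and 4 in each Tw2neg library.

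Of the heteromeric light chains, 2 of 5 tested were lower in Tw2pos and none was higher. Among all genes tested, 20.0% were lower and 18.7% higher. The largest fall among all members was in Slc7a11 (chromosome 3, 49892526 to 50443614, minus strand), the xCT light chain that exchanges cystine for glutamate. Slc7a11 had 3.91 and 4.09 CPM in Tw2pos against 23.1 and 54.1 CPM in Tw2neg, and 26.2 CPM in Pax7pos against 49.6 CPM in Pax7neg. Both Tw2pos libraries lay below the other 4 libraries, and the limma estimate on normalised counts was −3.13 on the log2 scale (SE 0.42, adjusted p = 0.0036). The Tw2neg libraries differed among themselves by more than the Tw2pos libraries did. The gene overlaps predicted transcripts on both strands, and no source used here gives the strand setting of the counting. Slc7a11 is not alone in this. Other members also overlap genes on the other strand, among them Slc1a1, Slc1a2, Slc38a10, Slc43a2, Slc3a1 (with Prepl) and Slc7a7 (with Oxa1l).

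Slc7a8 (chromosome 14, 54722209 to 54781946, minus strand), the LAT2 light chain for neutral amino acids, had 16.1 and 16.7 CPM in Tw2pos against 40.6 and 26.8 CPM in Tw2neg (log2 fold change −1.02, SE 0.26, limma adjusted p = 0.025). The Pax7 line showed the opposite order, with 126 CPM in Pax7pos against 23.5 CPM in Pax7neg. The Slc7a8 call ended without Tw2pos replicate 1 (adjusted p = 0.133) and without Tw2pos replicate 2 (adjusted p = 0.121).

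Slc7a5 (chromosome 8, 121881150 to 121907694, minus strand), the LAT1 light chain for leucine and other large neutral amino acids, had 36.04 and 52.9 CPM in Tw2pos against 56.8 and 75.6 CPM in Tw2neg, and 611 CPM in Pax7pos against 84.2 CPM in Pax7neg. The Tw2pos libraries were the 2 lowest and the Pax7pos library the highest. Between Tw2pos and Tw2neg, limma put the log2 difference at −0.60 (SE 0.26, adjusted p = 0.118). Slc7a6 and Slc7a7, the y+LAT light chains that export cationic amino acids, have no line in the CPM table. Slc7a6 had 699 and 835 normalised counts in Tw2pos against 570.1 and 633 in Tw2neg (log2 fold change 0.35, limma adjusted p = 0.19), and Slc7a7 had 156 and 221 against 212 and 145 (0.08, limma adjusted p = 0.853). Per kilobase of exon, Slc7a6 and Slc7a5 were the most abundant light chains in every Twist2 library. Slc7a6 stood at 153 and 183 normalised counts per kilobase and Slc7a5 at 120 and 177 in Tw2pos, against 125 and 139 for Slc7a6 and 191 and 255 for Slc7a5 in Tw2neg. In Tw2neg the ranges of Slc7a5 and Slc7a6 did not overlap, and in Tw2pos they did.

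Slc7a11, Slc3a2, Slc7a5, Slc1a5, Slc38a2 and Slc7a1 are known targets of Atf4, the transcription factor of amino acid stress, in mammalian cells. In the Twist2 line Slc7a11 was lower in Tw2pos, Slc1a5 was higher and the other 4 did not pass. Atf4 binds composite elements of the type TGATGNAA, which were looked for on both strands of the RefSeq promoter windows (GRCm38.p6, 300 bases around the start, the last 50 of them after it). The element was in 4 of 42 windows of the 31 members that matched by symbol (9.52%), belonging to Slc7a11, Slc1a4 and Slc7a7, and in 3.97% of all 32851 windows. Slc7a5 and Slc1a5 matched no window and were not searched, and the windows of Slc3a2, Slc38a2 and Slc7a1 did not hold the element. Sequence outside the windows, such as introns, was not searched, so these genes may hold the element elsewhere. The Slc7a7 windows with the element overlap and share a copy of it. The windows of Slc7a11 and Slc1a4 are shown because both hold the element while the genes moved in opposite directions in Tw2pos. The window of Slc36a1 is shown as the member window with the core TCACGTGA, part of the motif bound by lysosomal gene regulators, which 0.974% of all windows held. Capitals mark TGATGNAA or its reverse complement in Slc7a11 and Slc1a4 and TCACGTGA in Slc36a1.
Slc7a11, chr3:50443564-50443863, minus strand: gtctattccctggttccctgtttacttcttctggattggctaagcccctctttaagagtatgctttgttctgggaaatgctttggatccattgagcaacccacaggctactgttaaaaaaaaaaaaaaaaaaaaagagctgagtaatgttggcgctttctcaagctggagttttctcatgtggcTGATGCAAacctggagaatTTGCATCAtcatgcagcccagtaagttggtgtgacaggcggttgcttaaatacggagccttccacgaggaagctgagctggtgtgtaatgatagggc
Slc1a4, chr11:20332664-20332963, minus strand: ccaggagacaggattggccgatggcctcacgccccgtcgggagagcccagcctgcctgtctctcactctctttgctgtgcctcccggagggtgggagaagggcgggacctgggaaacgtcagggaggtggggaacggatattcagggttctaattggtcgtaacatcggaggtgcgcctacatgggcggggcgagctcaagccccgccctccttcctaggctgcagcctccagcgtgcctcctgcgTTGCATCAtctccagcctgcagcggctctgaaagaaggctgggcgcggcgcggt
Slc36a1, chr11:55204090-55204389, plus strand: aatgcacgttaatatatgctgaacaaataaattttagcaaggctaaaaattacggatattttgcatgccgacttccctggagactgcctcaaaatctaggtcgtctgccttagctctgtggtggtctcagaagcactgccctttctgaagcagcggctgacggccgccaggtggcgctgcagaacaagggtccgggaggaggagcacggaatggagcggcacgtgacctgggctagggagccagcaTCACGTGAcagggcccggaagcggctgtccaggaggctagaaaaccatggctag
In Slc7a11 the elements begin 66 and 47 bases before the start, and in Slc1a4 the element begins 4 bases before the start. The E-box CAGCTG, of the type bound by MyoD, was in 10 of 42 member windows (23.8%) and in 16.3% of all windows. A match of letters only describes the window.

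None of the 4 cationic transporters and relatives tested passed in the Twist2 line, where 38.6% of all genes did. Slc7a1 (chromosome 5, 148327410 to 148399904, minus strand), the CAT1 carrier of arginine and lysine, had 88.8 and 105 CPM in Tw2pos against 92.5 and 119.5 CPM in Tw2neg, groups that overlapped (log2 fold change −0.13, limma adjusted p = 0.645). In the Pax7 line Slc7a1 had 736 CPM in Pax7pos against 129 CPM in Pax7neg. Slc7a2 (chromosome 8, 40862396 to 40922308, plus strand), the CAT2 carrier, had 62.5 and 34.4 CPM in Tw2pos against 31.1 and 12.6 CPM in Tw2neg, and 61.2 CPM in Pax7pos against 8.76 CPM in Pax7neg. Its libraries did not overlap in the Twist2 line, yet each group spread widely, and the limma estimate of 1.21 on the log2 scale (SE 0.48) did not pass (adjusted p = 0.0937). Without Tw2neg replicate 1 it did pass (log2 fold change 1.86, adjusted p = 0.0221), as it did with DESeq2 (adjusted p = 0.0325). Slc7a3 and Slc7a4 stayed at or below 19.1 normalised counts in every library, and Slc7a3 (log2 fold change 0.98, limma adjusted p = 0.172) passed under quantile normalization (1.76, adjusted p = 0.0361).

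Slc1 was the family with the highest share of calls in the Twist2 line, where 38.6% of all genes passed. All 5 members tested passed, 4 as higher in Tw2pos and 1 as lower. The glutamate transporters were called in both directions. Slc1a3 (chromosome 15, 8634124 to 8710764, minus strand), the GLAST glutamate transporter of astrocytes, had 22.7 and 25.04 CPM in Tw2pos against 5.42 and 4.54 CPM in Tw2neg, and 3.55 CPM in Pax7pos, from 34 reads, against 10.4 CPM in Pax7neg. Tw2pos was above all other libraries, and limma put its log2 difference from Tw2neg at 2.23 (SE 0.25, adjusted p = 0.0021). Slc1a1 (chromosome 19, 28835049 to 28913960, plus strand), the EAAC1 transporter of glutamate and cysteine, ran the other way, with 2.47 and 3.22 CPM in Tw2pos against 24.1 and 12.6 CPM in Tw2neg. The limma estimate was −2.61 on the log2 scale (SE 0.39, adjusted p = 0.005). In the Pax7 line Slc1a1 was likewise low in labelled cells, at 1.98 CPM in Pax7pos, from 19 reads (95% Poisson interval 1.2 to 3.1 CPM), against 19.4 CPM in Pax7neg. Slc1a2, the GLT-1 glutamate transporter, had 38.2 and 37.4 normalised counts in Tw2pos against 12.2 and 16.0 in Tw2neg (log2 fold change 1.37, SE 0.40, limma adjusted p = 0.0397).

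The Slc1 exchangers of neutral amino acids were both higher in Tw2pos. Slc1a4 (chromosome 11, 20302180 to 20332713, minus strand), the ASCT1 exchanger of alanine, serine and cysteine, had 42.8 and 39.5 CPM in Tw2pos against 15.1 and 9.08 CPM in Tw2neg, and 108 CPM in Pax7pos against 18.4 CPM in Pax7neg. Labelled cells were above unlabelled cells in both lines, and the limma estimate in the Twist2 line was 1.79 on the log2 scale (SE 0.29, adjusted p = 0.0061). Slc1a5 (chromosome 7, 16781340 to 16798274, plus strand), the ASCT2 glutamine exchanger, had 4458 and 4338 normalised counts in Tw2pos against 2377 and 2499 in Tw2neg (log2 fold change 0.85, SE 0.19, limma adjusted p = 0.0168). It has no line in the CPM table, so no Pax7 line value of it was used. The Slc1a5 call ended without Tw2pos replicate 1 (adjusted p = 0.163) or replicate 2 (0.154), and the Slc1a2 call ended without Tw2pos replicate 1 (0.207), Tw2pos replicate 2 (0.199) or Tw2neg replicate 1 (0.053).

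In the sodium-coupled Slc38 family, 2 of 9 tested members were higher in Tw2pos, 3 were lower and 4 did not pass. Of all genes tested, 18.7% were higher and 20.0% lower. Slc38a1 (chromosome 15, 96571418 to 96642913, minus strand), the SNAT1 glutamine transporter, had 14.0 and 12.0 CPM in Tw2pos against 77.1 and 148 CPM in Tw2neg, and 154 CPM in Pax7pos against 93.6 CPM in Pax7neg. Tw2pos was below every other library, and limma put its log2 difference from Tw2neg at −3.05 (SE 0.33, adjusted p = 0.002). Slc38a2 (chromosome 15, 96687392 to 96699730, minus strand), the SNAT2 transporter that cells raise when amino acids are scarce, lies beside Slc38a1 in the genome and had more normalised counts per kilobase (1348 and 1500 in Tw2pos against 1113 and 1045 in Tw2neg) than Slc38a1 (10.1 and 8.61 in Tw2pos against 55.7 and 108 in Tw2neg). It had 962 and 1071 CPM in Tw2pos against 790 and 738 CPM in Tw2neg (log2 fold change 0.40, limma adjusted p = 0.273), and 2307 CPM in Pax7pos against 935 CPM in Pax7neg. The direction of Slc38a2 in the Twist2 line turned to −0.05 under library total scaling and −0.29 under quantile normalization.

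Slc38a4 (chromosome 15, 96994820 to 97055956, minus strand), the SNAT4 carrier and an imprinted gene in mouse, had 40.8 and 37.4 normalised counts in Tw2pos against 83.8 and 88.0 in Tw2neg (log2 fold change −1.12, SE 0.30, limma adjusted p = 0.0309). Slc38a3, the SNAT3 glutamine transporter of liver and brain, had 22.9 and 10.9 normalised counts in Tw2pos against 102 and 48.8 in Tw2neg (−2.08, SE 0.54, limma adjusted p = 0.0287). The members that rose were Slc38a10 and Slc38a6. Slc38a10 (chromosome 11, 120103960 to 120151346, minus strand), a widely expressed carrier, had 2944 and 2832 normalised counts in Tw2pos against 1905 and 1526 in Tw2neg (0.76, SE 0.20, limma adjusted p = 0.0281). Slc38a6 had 255 and 219.5 normalised counts in Tw2pos against 151 and 108 in Tw2neg (0.88, SE 0.26, limma adjusted p = 0.0431). The lysosomal members did not pass: Slc38a9, an arginine sensor upstream of mTORC1, had 363 and 274 normalised counts in Tw2pos against 385 and 429 in Tw2neg, and Slc38a7, a glutamine exporter, had 222 and 216 against 171 and 159. Slc38a11 ranged between 14.4 and 61.0 normalised counts with overlapping groups. Leaving out either Tw2pos library ended the calls of Slc38a10 (adjusted p = 0.207 without replicate 1 and 0.181 without replicate 2), Slc38a6 (0.297 and 0.185) and Slc38a4 (0.171 and 0.225). Slc38a3 lost its call without Tw2pos replicate 2 (0.132) or Tw2neg replicate 1 (0.0856), and Slc38a6 (0.0801) and Slc38a4 (0.0623) without Tw2neg replicate 2.

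The 3 Slc43 members behaved differently from each other in the Twist2 line and had more CPM in Pax7pos than in Pax7neg. Slc43a1 (chromosome 2, 84838850 to 84863594, plus strand), the LAT3 facilitator of leucine and related amino acids, had 49.4 and 60.7 CPM in Tw2pos against 25.9 and 21.5 CPM in Tw2neg, and 57.2 CPM in Pax7pos against 23.0 CPM in Pax7neg. The Pax7pos value lay within the Tw2pos range and both were above the unlabelled groups, with a limma estimate of 1.20 on the log2 scale in the Twist2 line (SE 0.21, adjusted p = 0.008). Slc43a2 (chromosome 11, 75531694 to 75577575, plus strand), the LAT4 facilitator of the same substrates, was lower in Tw2pos, at 13.6 and 11.4 CPM against 44.3 and 41.4 CPM in Tw2neg (−1.79, SE 0.21, limma adjusted p = 0.0024). In the Pax7 line Slc43a2 had 96.1 CPM in Pax7pos against 32.9 CPM in Pax7neg. Slc43a3 (chromosome 2, 84936579 to 84958509, plus strand), a family member known to carry purine nucleobases, had 305 and 408 CPM in Tw2pos against 302 and 212 CPM in Tw2neg (0.47, limma adjusted p = 0.212), and 1014 CPM in Pax7pos against 172 CPM in Pax7neg. The Slc43a1 call ended without Tw2pos replicate 2 (adjusted p = 0.0906).

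Of the Slc36 members, 1 of 3 tested was higher in Tw2pos, where 18.7% of all genes were. Slc36a4 (chromosome 9, 15709738 to 15743361, plus strand), the PAT4 carrier, had 348 and 292 normalised counts in Tw2pos against 207 and 175 in Tw2neg (log2 fold change 0.74, SE 0.22, limma adjusted p = 0.0426), a call that ended without Tw2pos replicate 1 (adjusted p = 0.358), Tw2pos replicate 2 (0.191) or Tw2neg replicate 2 (0.0774). Slc36a1 (chromosome 11, 55204350 to 55236330, plus strand), the PAT1 carrier of lysosomes, had 26.7 and 28.1 CPM in Tw2pos against 26.97 and 20.5 CPM in Tw2neg, groups that overlapped, and 10.1 CPM in Pax7pos against 16.5 CPM in Pax7neg. Pax7pos was the lowest library for Slc36a1, unlike for most other members. Slc36a2, a glycine and proline carrier, had between 24.1 and 49.6 normalised counts in the 4 libraries.

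The 12 members under the mean of 10 had at most 19.3 normalised counts in any library. Slc1a6 and Slc1a7, the EAAT4 and EAAT5 glutamate transporters of cerebellum and retina, had 12 and 14 reads and 12 and 16 reads in Tw2pos, against 2 and 3 reads and 1 and 0 reads in Tw2neg. In the limma fit without the filter on level, over 18503 genes, their adjusted p was 0.0195 and 0.0119. Slc38a5, the SNAT5 glutamine carrier, had 1 and 0 reads in Tw2pos against 16 and 4 in Tw2neg (adjusted p = 0.0897 in that fit). Slc7a10 had 7 and 6 reads in Tw2pos against 3 and 15 in Tw2neg, and Slc7a9, Slc7a13, Slc7a14, Slc36a3 and Slc38a8 had at most 4 reads in any library. Slc7a12 and Slc7a15 had no read in the 4 libraries, which allows up to 3.82 and 3.62 normalised counts in Tw2pos and 2.44 and 2.40 in Tw2neg, for counting error only.

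Between the labelled cells of the 2 lines, the contrast for which the families were taken up, 1 of the 15 members in the CPM table was higher in Tw2pos by at least 1 on the log2 scale of CPM plus 10, where 24.9% of all genes of that table were, and 10 were lower, where 20.3% were. Those shares describe the choice and carry no test. The lowest differences, Tw2pos minus Pax7pos, were those of Slc7a5 (−3.51), Slc38a1 (−2.83), Slc7a1 (−2.801), Slc7a8 (−2.37) and Slc43a2 (−2.24). Slc3a2 followed at −1.92, then Slc43a3 at −1.48, Slc7a11 at −1.37, Slc1a4 at −1.21 and Slc38a2 at −1.17. Slc1a3 was the gene higher in Tw2pos, at 1.32. Slc36a1 (0.89), Slc1a1 (0.10), Slc43a1 (−0.05) and Slc7a2 (−0.28) lay within 1. In the authors' deposited table, 6 of the 15 genes (Slc3a2, Slc7a1, Slc7a5, Slc36a1, Slc38a2 and Slc43a3) reached the 2-fold difference from Tw2neg that the table requires in Pax7pos alone, and 3 (Slc1a3, Slc7a11 and Slc38a1) in Tw2pos alone. Slc7a8 is the member nearest to that limit, with −1.0003 for Tw2pos in the authors' deposited table. It also reached the limit through Pax7pos, at 1.87, so its place does not rest on the Tw2pos value alone.

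**Figure D3:**
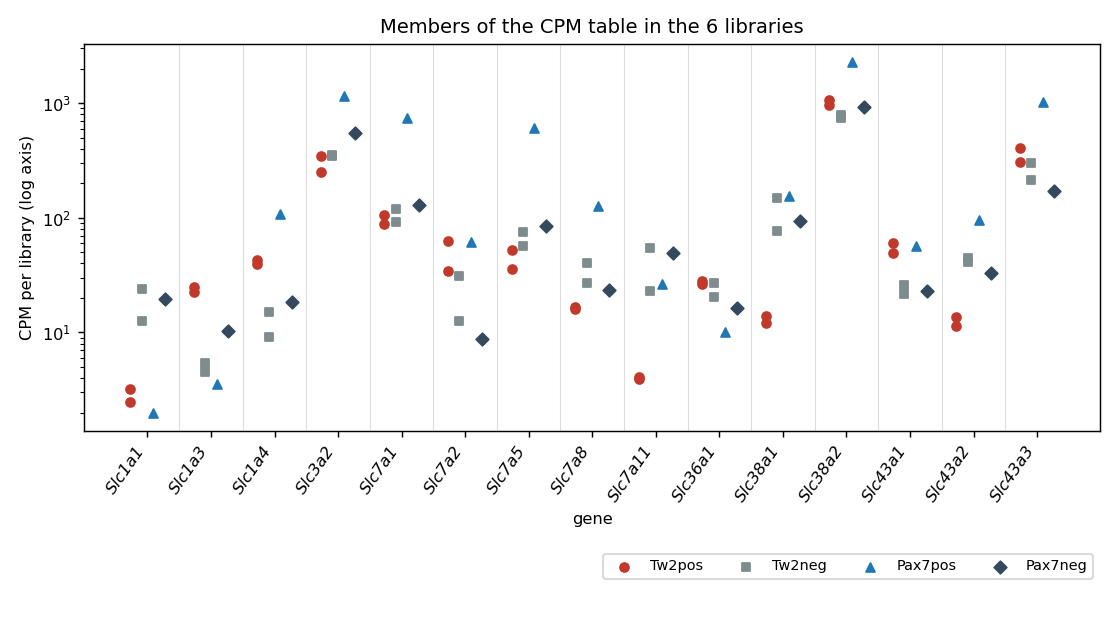
CPM of the 15 members of the CPM table in each library (log axis); red circles are Tw2pos, grey squares Tw2neg, the blue triangle Pax7pos and the dark diamond Pax7neg. The Pax7pos library is above the other 5 for 9 members, among them Slc7a5 at 611 CPM. Both Tw2pos libraries lie below all other libraries for Slc3a2, Slc7a5, Slc7a8, Slc7a11, Slc38a1 and Slc43a2.

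Labelled and unlabelled cells of the Pax7 line were compared without a test, since each has 1 library. By at least 1 on the log2 scale of CPM plus 10, 10 of 15 members were higher in Pax7pos, where 18.3% of all genes of the table were, and 1 was lower, Slc1a1 (−1.30), where 33.0% were. The table lists genes for their difference from Tw2neg, in part through Pax7pos itself, so these shares are not comparable with those of all genes of the genome. Pax7pos is also part of the contrast for which the families were taken up, and 6 of the 15 members are in the table through Pax7pos alone. The counts and shares of this paragraph are therefore not independent of the choice of genes, and they only describe it. Slc7a5 (2.72), Slc43a3 (2.49), Slc7a1 (2.42), Slc1a4 (2.06), Slc7a8 (2.02) and Slc7a2 (1.92) had the largest differences, Pax7pos minus Pax7neg. Slc43a2 (1.31), Slc38a2 (1.29), Slc3a2 (1.06) and Slc43a1 (1.03) also passed this size. Slc38a1 (0.66), Slc36a1 (−0.39), Slc1a3 (−0.59) and Slc7a11 (−0.72) did not reach it. The Pax7pos library was the highest of the 6 for 9 of 15 members, where it was the highest for 30.3% of all genes of the table, and the lowest for 3 members (Slc1a1, Slc1a3 and Slc36a1), where it was the lowest for 42.3%.

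**Figure D4:**
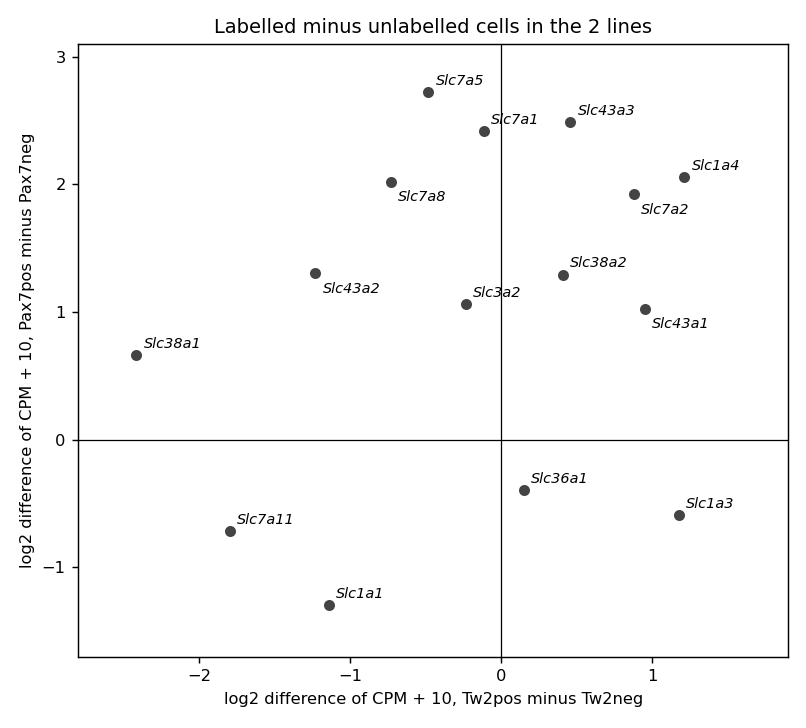
Log2 difference of CPM plus 10 between labelled and unlabelled cells in the Twist2 line (x axis, Tw2pos minus Tw2neg, group means) and in the Pax7 line (y axis, Pax7pos minus Pax7neg, 1 library each) for 15 members. Slc38a1, Slc43a2, Slc7a8, Slc7a5, Slc7a1 and Slc3a2 lie at upper left, with negative values on the x axis and positive values on the y axis, and Slc1a3 (1.18 and −0.59) and Slc36a1 (0.15 and −0.39) lie at lower right.

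The unlabelled cells of the 2 lines had no part in the contrast for which the families were taken up. They were compared in a limma fit on log2 of CPM plus 1 over the 6 libraries and 4939 genes. The CPM table admits genes for a 2-fold difference from Tw2neg, so Tw2neg had a part in which members could be compared. It admits genes for a 2-fold difference between Tw2neg and Pax7neg too, as the authors' deposited table shows for Slc7a2. None of the 15 members passed as different between Tw2neg and Pax7neg, at an adjusted p or at an unadjusted p of 0.05. Over all genes 3 passed (0.0607%), all higher in Tw2neg, and 15.6% had an unadjusted p under 0.05. This fit takes the spread of Pax7neg, with its lone library, from the Twist2 groups. The log2 differences, Tw2neg minus Pax7neg, ran between −0.93 for Slc1a3 (SE 0.40, limma adjusted p = 0.322) and 1.10 for Slc7a2 (SE 0.57, limma adjusted p = 0.417). Pax7neg lay inside the range of the Tw2neg libraries for 4 members, Slc1a1, Slc7a11, Slc38a1 and Slc43a1. It lay above that range for 6 members and below it for 5. Without Tw2neg replicate 1, Slc1a3 (−1.04, adjusted p = 0.0442) and Slc1a4 (−0.94, adjusted p = 0.0249) passed. Without Tw2neg replicate 2, Slc7a11 (−1.07, adjusted p = 0.0333) and Slc7a2 (1.72, adjusted p = 0.0278) passed, and over all genes these fits called 1049 and 894 genes, since their spread came from the Tw2pos libraries alone.

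Other genes of amino acid handling were described in the Twist2 line through 3 lists, beside the 18.7% higher and 20.0% lower of all genes. Of 31 tested genes of amino acid sensing upstream of mTORC1, 2 were higher in Tw2pos, 4 were lower and 25 did not pass, with a median log2 fold change of −0.06. Fnip1, a partner of folliculin, had the highest mean (1203.5 and 1280 normalised counts in Tw2pos against 983 and 1239 in Tw2neg). Gatsl2, which encodes a Castor family protein, had 317 and 293 against 158 and 169.5 (log2 fold change 0.90, limma adjusted p = 0.0199), and the GTPase Rragb had 14.0 and 8.44 against 44.7 and 44.0 (−1.93, limma adjusted p = 0.0184). Of 22 tested amino acid transporters of other families, 4 were higher, 5 were lower and 13 did not pass, with a median of −0.21. The taurine transporter Slc6a6 had the highest mean, at 2239 and 1856 normalised counts in Tw2pos against 3916 and 2814 in Tw2neg (−0.70, limma adjusted p = 0.0606). Slc6a7, a proline transporter of brain, had 229 and 306 normalised counts in Tw2pos against 33.3 and 17.6 in Tw2neg (3.40, SE 0.39, limma adjusted p = 0.0024). Slc15a3, a histidine and peptide carrier of lysosomes in immune cells, had 47.2 and 85.6 against 624 and 796 (−3.45, SE 0.33, limma adjusted p = 0.0015).

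Of 33 tested enzymes of amino acid metabolism, 8 were higher in Tw2pos, 6 were lower and 19 did not pass, with a median of 0.28. Glul, the glutamine synthetase, had the highest mean, at 8961 and 13051 normalised counts in Tw2pos against 5995 and 5335 in Tw2neg (log2 fold change 0.94, SE 0.28, limma adjusted p = 0.045). Gpt2, an alanine aminotransferase of mitochondria, had the largest rise, at 519 and 466 normalised counts in Tw2pos against 161 and 79.96 in Tw2neg (2.10, SE 0.35, limma adjusted p = 0.0072). Arg2, the mitochondrial arginase, had the largest fall, at 5.10 and 7.24 against 117 and 204 (−4.46, SE 0.44, limma adjusted p = 0.0015). In the CPM table, 9 of these enzymes are listed, of which 4 were higher in Pax7pos than in Pax7neg by at least 1 on the log2 scale of CPM plus 10 and 1 was lower, where 18.3% of all genes of the table were higher and 33.0% lower. Of 8 sensing genes listed there, 1 was higher and 1 lower, and of 3 transporters of other families none was higher and 1 was lower.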

How the data were processed

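Reads were aligned with TopHat2 2.0.0 to GRCm38 (mm10) and normalised with DESeq2 1.6.3, per the submitters' processing notes. No source used here names the counter, its annotation or its strand setting. The authors deposited a normalised signal per gene for the Twist2 libraries (counts divided by a size factor) and a table of CPM, with Twist2 columns as group means, and of log2 ratios to Tw2neg computed by the authors from CPM plus 1. The CPM table lists genes with at least 10 CPM in 3 libraries and a 2-fold difference from Tw2neg in at least 1 comparison, as tested on the deposited values. All of the deposited normalised values (100%) gave whole reads within 0.01 of a read, and Twist2 CPM per library was rebuilt from them. The library sizes fitted to the deposited CPM were 9710688 and 10262454 in Tw2pos and 15312683 and 15643678 in Tw2neg. Those of Tw2pos lie below the read totals and those of Tw2neg above them.

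Tw2pos was compared with Tw2neg by limma 3.58.1 (R 4.3.3) with a variance trend on log2 of normalised counts plus 1, for genes with a mean of at least 10. Tw2neg was compared with Pax7neg with the same model for log2 of CPM plus 1 in all 6 libraries. Adjustment was by Benjamini-Hochberg over all genes tested, with a threshold of 0.05. Contrasts with Pax7pos were taken on CPM plus 10, where a difference of 1 was the size counted. Alternatives used edgeR 4.0.16 and DESeq2 1.42.0 on the recovered reads, which called 5342 and 5296 genes between Tw2pos and Tw2neg. The fits were tested on simulated data. Named genes were the members in the CPM table, those passing with a mean of at least 100 or with a mean of at least 1000, and, from each further list, the gene with the highest mean and the largest passing change in each direction; other members named are there to account for all 42. The members and lists were chosen with earlier results of these data known. Replicates differed beyond sampling noise (chi-square per degree of freedom 13.7 in Tw2pos and 69.6 in Tw2neg).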

Additional observations from a re-analysis of the deposited data

Results flagged for a closer look

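For 6 of 15 members (40.0%), labelled cells lay on opposite sides of unlabelled cells in the 2 mouse lines, with every library of a line on the same side. The same held for 1461 of the 4939 genes of the CPM table (29.6%). The contrast between Tw2pos and Pax7pos, for which the families were taken up, is part of this pattern, and Slc3a2 and Slc7a5 are in the table through Pax7pos alone and Slc38a1 and Slc1a3 through Tw2pos alone, so the values are a description. The values are log2 differences of CPM plus 10 between labelled and unlabelled cells, and the difference between the lines was not tested, since the Pax7 groups have 1 library each. Slc7a5 stood at 2.72 in the Pax7 line and −0.48 in the Twist2 line, and Slc7a8 at 2.02 and −0.73. Slc3a2, the heavy chain of both, stood at 1.06 in the Pax7 line and −0.23 in the Twist2 line. In the Twist2 line neither Slc3a2 (adjusted p = 0.397) nor Slc7a5 (adjusted p = 0.118) passed in limma. Slc43a2 stood at 1.31 in the Pax7 line and −1.23 in the Twist2 line, and Slc38a1 at 0.66 and −2.42. Slc1a3 ran the other way, at −0.59 in the Pax7 line and 1.18 in the Twist2 line.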

How the results depend on the processing

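Slc1a3 and Slc1a4 (higher in Tw2pos) and Slc1a1, Slc7a11, Slc38a1 and Slc43a2 (lower) passed in each of the 14 alternatives run between Tw2pos and Tw2neg. The 8 members called higher became 3 under library total scaling and 5 without a variance trend, and leaving out 1 library gave 2 to 8 higher, 4 to 6 lower and 2578 to 7370 genes of all (5470 with every library). Library total scaling turned Slc7a6 to −0.10, Slc7a7 to −0.37, Slc36a1 to −0.24, Slc38a2 to −0.050, Slc38a7 to −0.041 and Slc38a11 to −0.073, and quantile normalization turned Slc36a2 to 0.0072 and Slc38a2 to −0.29. Of these none had passed. Without the filter on level, Slc1a2 (adjusted p = 0.0562), Slc36a4 (0.0566), Slc38a3 (0.056) and Slc38a6 (0.0629) lost their calls. Without a variance trend Slc36a4 (0.0633), Slc38a6 (0.0592) and Slc38a10 (0.058) lost theirs. Slc3a2 (adjusted p = 0.0317), Slc7a5 (0.0133) and Slc38a9 (0.0329) passed as lower under library totals, where the median of all genes was −0.49. Leaving out 1 library moved Slc7a1 over −0.32 to 0.056, Slc7a4 over −0.37 to 1.21, Slc7a7 over −0.19 to 0.35, Slc36a2 over −0.84 to 0.084 and Slc38a11 over −0.64 to 1.37. Where this leaves a lone library, it is assumed to vary like the other groups. The shared replicate numbers are not said to mark shared animals. With the replicate block, 9 members were higher and 8 lower (6627 genes of all), and same-numbered libraries' deviations correlated at 0.263 over genes. The members gained were Slc7a2 (adjusted p = 0.00019) and Slc7a5 (0.0308).

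Between Tw2neg and Pax7neg, the 3 genes called became 1 under quantile normalization, with pseudocount 10 or without a variance trend, 18 at a mean of at least 50, 43 in the 2 unlabelled groups alone, and 47 to 1049 with 1 library left out, where 0 to 1 members were higher and 0 to 2 lower. Quantile normalization turned Slc38a2 to 0.20, and leaving out 1 library moved Slc1a1 over −0.59 to 0.30, Slc7a11 over −1.07 to 0.12, Slc38a1 over −0.28 to 0.66 and Slc43a1 over −0.089 to 0.17. Count models (edgeR, DESeq2 and TMM scaling) were not run for this comparison, and whole reads were not sought in the Pax7neg values. Pax7neg has no partner for a block. On CPM plus 1, 2 members were higher in Tw2pos than in Pax7pos and 2 were lower in Pax7pos than in Pax7neg. The cause of these changes was not tested. The 2 libraries a group, and 1 in each Pax7 group, limit the precision of every value.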
